A study of Mus musculus with 6 samples.

Results

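The gap between MyoD-silenced and control muscle cells was compared late and early in differentiation, as the mean of days 3 and 6 minus day 1. All 6 of the 6 arrays of the study entered: 2 of day 1, 2 of day 3 and 2 of day 6. Every array carried RNA of C2C12 control cells, a mouse C3H myoblast line, and RNA of the clone MyoD(-)cl.A8. In that clone the mouse MyoD transcript was expressed in antisense from pcDNA 3.0 after transfection and selection with G-418. Only this 1 clone stood for silencing, and no label read here says whether the control cells carried an empty vector. Both cell populations were grown in medium with fetal bovine serum, moved to a lower level of horse serum to differentiate, and sampled at 1, 3 and 6 days. Replicate A of each day had the clone in Cy5 and the control in Cy3, and replicate B had the dyes exchanged.

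MyoD is a basic helix-loop-helix transcription factor that binds E-box sequences and switches on the muscle program. When serum is lowered, C2C12 myoblasts leave the cell cycle, express myogenin, fuse into myotubes and build sarcomeres. Exit from the cycle depends in part on inhibitors of cyclin-dependent kinases, and sarcomeres are assembled from thick myosin filaments, thin actin filaments with troponin and tropomyosin, and the Z discs between them. The title of the study names CDKN1C, S100A6 (calcyclin) and ANKRD2 as genes under MyoD's control.

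The values were deposited as scores of 5376 spots per array, whose scale and direction are not stated. Positive scores are likely to mean more RNA in the clone, as the channel names mark the control as reference and the clone as test. After averaging and centring 2466 features remained, namely 1521 genes and 945 probes to which no gene symbol was assigned. The array held human muscle probes, so gene symbols are human and the RNA was mouse. A difference between late and early scores can come from the clone, from the control or from both, which cannot be told apart here. Whether the muscle markers were present could not be checked, since a score gives no level. The SD of the scores over features was 0.84 for the day 1 mean, 0.93 for day 3 and 0.97 for day 6, and 1.08 for the late minus day 1 difference.

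Mouse promoters are shown first for the 3 leading genes that hold the E-box letters CAGCTG and for the title gene S100A6, which does not. The 24 genes with the largest differences among genes whose early and late arrays did not overlap, 12 in each direction, were matched to mouse genes by symbol. The 250 bases before each transcription start were searched for CAGCTG, which reads the same on both strands. Sequences are from RefSeq, build GRCm38.p6, with CAGCTG in capitals.

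Pgam2 (chr11:5803797-5804046, minus strand): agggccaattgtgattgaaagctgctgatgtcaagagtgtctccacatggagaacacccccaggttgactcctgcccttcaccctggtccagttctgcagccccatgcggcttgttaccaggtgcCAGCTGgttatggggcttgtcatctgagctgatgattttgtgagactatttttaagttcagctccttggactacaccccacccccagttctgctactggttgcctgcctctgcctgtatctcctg

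Ndufv2 (chr17:66101560-66101809, minus strand): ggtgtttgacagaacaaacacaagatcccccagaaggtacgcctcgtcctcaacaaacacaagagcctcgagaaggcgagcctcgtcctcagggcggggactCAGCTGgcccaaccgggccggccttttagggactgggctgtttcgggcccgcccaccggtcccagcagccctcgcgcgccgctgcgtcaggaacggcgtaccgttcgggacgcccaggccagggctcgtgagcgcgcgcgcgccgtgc

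Palm (chr10:79793322-79793571, plus strand): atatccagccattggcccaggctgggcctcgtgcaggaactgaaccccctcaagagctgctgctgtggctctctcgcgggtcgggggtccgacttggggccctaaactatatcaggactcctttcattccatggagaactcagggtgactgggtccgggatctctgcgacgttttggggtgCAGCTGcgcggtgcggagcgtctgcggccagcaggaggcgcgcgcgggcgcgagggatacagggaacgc

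S100a6 (chr3:90612644-90612893, plus strand): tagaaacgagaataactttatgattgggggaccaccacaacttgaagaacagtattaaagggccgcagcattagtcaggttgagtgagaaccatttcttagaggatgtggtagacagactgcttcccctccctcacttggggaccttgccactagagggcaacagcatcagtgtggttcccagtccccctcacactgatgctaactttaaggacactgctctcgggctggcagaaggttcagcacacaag

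The letters lay 125 bases before the start of Pgam2, 148 before Ndufv2 and 69 before Palm. Among the 12 highest, 11 matched a mouse gene, 7 had a promoter in the table and 2 of these held CAGCTG. MYL11 was the gene not matched, as it was not looked up under its older symbol MYLPF. Among the 12 lowest, 12 matched, 8 had a promoter and 1 held CAGCTG. Of 1223 array genes with a promoter 14.7% held the letters, and of all 32851 mouse promoters 13%. A match describes the sequence and is not a binding site.

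Among named genes, the gap between clone and control changed most in CDKN1C, which was far below the control at day 1 and near it on days 3 and 6. HMGN4, BSG and RPL17 moved the other way, from above the control at day 1 to below it late. MYOD1 itself, the silenced gene, scored 0.41 and -0.36 on the day 1 arrays, 1.11 and -1.03 on those of day 3, and 0.50 and 0.26 on those of day 6. These values overlapped between early and late and lay on both sides of 0, and on no day were both arrays below 0. Its late minus day 1 difference was 0.18 (95% interval -1.81 to 2.18, adjusted p = 0.995, limma).

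**Figure D1:**
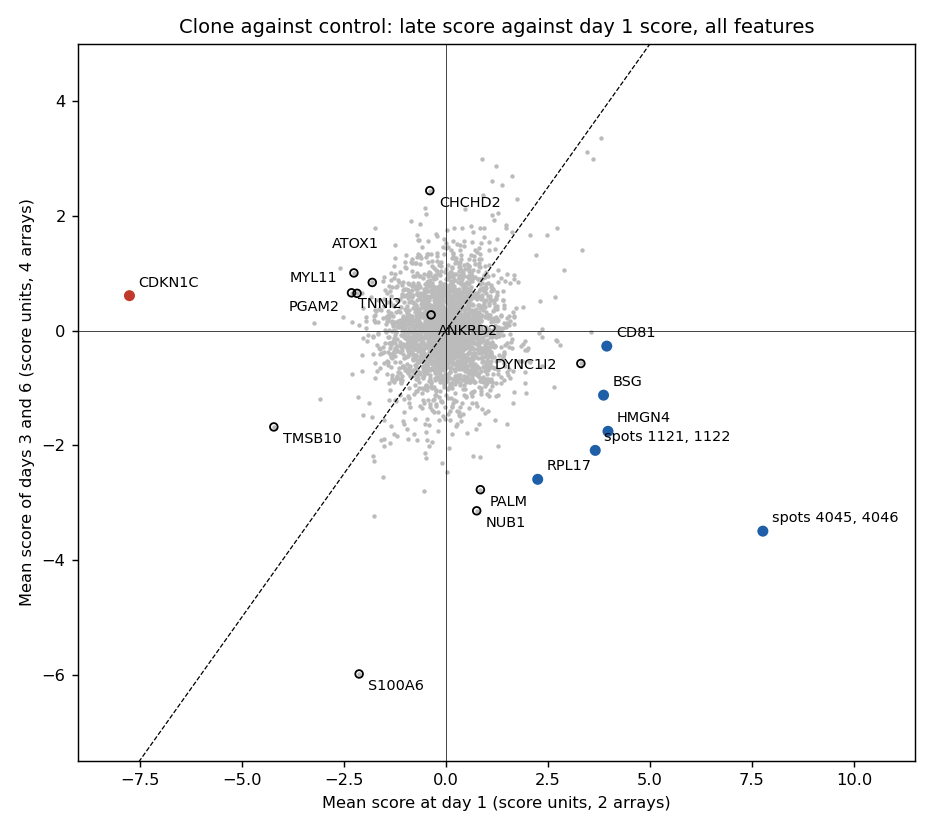
Each point is 1 of 2466 features, with its mean score over the 2 day 1 arrays on the horizontal axis and the mean of days 3 and 6 (4 arrays) on the vertical axis, both in score units. The dashed line marks equal scores, red is the feature that rose and blue the 6 that fell by limma, and open circles mark other named genes. CDKN1C lies at -7.75 at day 1 and 0.61 late, and the unnamed probe of spots 4045 and 4046 at 7.77 and -3.50.

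Across all features, 7 of 2466 (0.284%) passed limma's test of late minus day 1 at an adjusted p under 0.05, fitted on the 3 day means. Of these 1 rose (0.0406%) and 6 fell (0.243%). Of the 7, 5 were genes: CDKN1C, HMGN4, BSG, RPL17 and CD81. At an unadjusted p under 0.05 there were 126 features, or 5.11%. The test has 1 residual degree of freedom, from day 3 against day 6, and assumes that the lone day 1 mean varies like the late ones. Variances were moderated over all features, with a prior of 74.2 degrees of freedom. Standard errors therefore ran only from 1.00 to 1.24, with a median of 1.00. A call thus depended almost only on the size of the difference, and the intervals hardly reflect a gene's own spread. With the 945 unnamed probes left out, CDKN1C alone passed, and HMGN4 and BSG both had an adjusted p of 0.0787 (limma).

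CDKN1C encodes a Cip/Kip inhibitor of cyclin-dependent kinases and is named in the study's title. It scored -6.97 and -8.53 at day 1, 1.80 and -0.58 at day 3, and 1.76 and -0.54 at day 6. The day 1 arrays were the lowest by a wide margin, with 6.39 units to the nearest late array, and the late arrays spread around 0 with replicate A above it and replicate B below. The score rose by 8.36 (95% interval 6.37 to 10.35, adjusted p = 3.12e-09, limma). The rise was 8.75 in the replicate A arrays and 7.97 in the replicate B arrays, which share no array. The differences from day 1 to each late day were nearly equal, since the means were 0.61 on both.

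S100A6, the calcium-binding protein also called calcyclin, was below the control on all 6 arrays. Its scores were -1.98 and -2.26 at day 1, -5.72 and -7.04 at day 3, and -3.72 and -7.47 at day 6. Every late array was lower than both day 1 arrays, by at least 1.46 units. The late minus day 1 difference of -3.86 missed the threshold (95% interval -5.86 to -1.86, adjusted p = 0.0716, limma). ANKRD2, an ankyrin-repeat protein of the sarcomere and nucleus, is the third title gene. Its scores were -0.66 and -0.06 at day 1, -0.16 and 0.18 at day 3, and 1.02 and 0.06 at day 6, so that early and late overlapped. The difference was 0.64 (95% interval -1.36 to 2.63, adjusted p = 0.995, limma), and it was -0.20 from odd spots only.

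HMGN4 belongs to the nucleosome-binding HMGN proteins of chromatin. It scored 4.34 and 3.61 at day 1, 0.94 and -1.67 at day 3, and -2.50 and -3.79 at day 6. All late arrays were below both day 1 arrays, and both day 6 arrays were below both of day 3. The score fell by 5.73 (95% interval -7.80 to -3.66, adjusted p = 0.00039, limma). By symbol HMGN4 matched in mouse only a synonym of the pseudogene Hmgn2-ps1, so which mouse RNA the probe bound was not tested.

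BSG encodes basigin, a membrane glycoprotein that accompanies monocarboxylate transporters to the cell surface. Its scores were 4.82 and 2.91 at day 1, -1.18 and 0.16 at day 3, and -1.05 and -2.42 at day 6. Only the day 1 arrays were clearly above 0, and the nearest late array lay 2.75 units below them. The score fell by 4.99 (95% interval -7.00 to -2.98, adjusted p = 0.00222, limma).

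RPL17 is a protein of the large ribosomal subunit. It scored 2.60 and 1.91 at day 1, -0.18 and -2.61 at day 3, and -2.92 and -4.66 at day 6. Every late array was negative and every early one positive. The score fell by 4.84 (95% interval -6.89 to -2.79, adjusted p = 0.00463, limma). CDKN1C passed under all 16 alternatives in which limma could be fitted, whereas HMGN4 missed the threshold in 5 of them and BSG and RPL17 in 8 each. Leaving out any 1 of the 4 late arrays ended the call for BSG (adjusted p = 0.126 to 0.658, limma) and RPL17 (0.146 to 0.998), and leaving out either array of day 3 or replicate A of day 6 ended it for HMGN4 (0.0511 to 0.998).

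CD81, a tetraspanin of the cell surface, also passed, but on 1 array. Its scores were 8.24 and -0.35 at day 1, -0.11 and -0.09 at day 3, and -1.24 and 0.36 at day 6. Only replicate A of day 1 stood apart, and replicate B of that day lay among the late arrays. The fitted difference was -4.21 (95% interval -6.21 to -2.22, adjusted p = 0.0251, limma). Without replicate A of day 1 it was 0.0821, with 6 separate arrays the adjusted p was 0.635 (limma), and odd spots alone gave an adjusted p of 0.992 (limma).

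The largest difference of all belonged to a probe without a gene name, at spots 4045 and 4046. It scored 8.47 and 7.07 at day 1, 0.72 and -5.86 at day 3, and -4.45 and -4.39 at day 6. Its score fell by 11.26 (95% interval -13.29 to -9.23, adjusted p = 4.8e-14, limma), and the early and late arrays were separated by 6.34 units. Without replicate B of day 3 its adjusted p was 0.0764 (limma). A second unnamed probe, at spots 1121 and 1122, fell by 5.75 from scores of 4.21 and 3.11 at day 1 (adjusted p = 0.000825, limma). Its late arrays at -0.82, 1.06, -3.59 and -5.00 were all lower than the early ones. This call was lost in 6 alternatives, with an adjusted p of 0.0612 on values as deposited, 0.35 with neighbouring probes subtracted, 0.815 with a robust prior, 0.371 without day 3 replicate B, 0.588 without day 6 replicate A and 1 without day 3 replicate A (limma). Among unnamed probes, the highest difference was 3.69, from a day 1 mean of -2.59 (adjusted p = 0.119, limma).

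**Figure D2:**
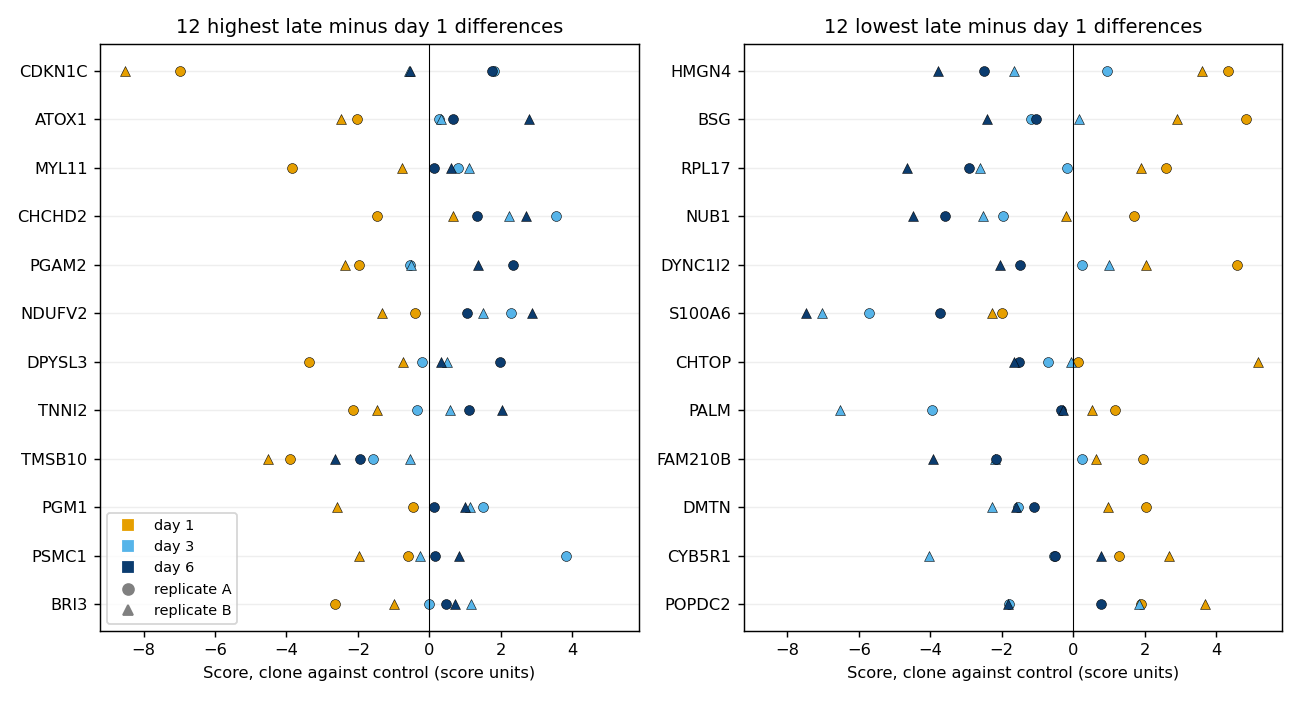
Scores of clone against control, in score units, on each of the 6 arrays for the 12 genes with the highest and the 12 with the lowest late minus day 1 difference among genes whose early and late arrays do not overlap. Colour marks the day, circles replicate A and triangles replicate B. In the left panel all 12 genes have a negative day 1 mean, and in the right panel all 12 have a negative late mean, signs that the choice by this difference makes likely.

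Without a test, 375 of 2466 features (15.2%) had early and late arrays that did not overlap, 183 of them higher late (7.42%) and 192 lower (7.79%). Among genes alone the shares were 7.82% higher and 7.96% lower. A gap of at least 1 unit separated the arrays in 52 features (2.11%), at least 2 units in 9 (0.365%; 3 higher, 0.122%, and 6 lower, 0.243%) and at least 3 units in 2 (0.0811%). The genes among the 9 were CDKN1C, ATOX1, HMGN4, BSG, RPL17 and DMTN. Among genes without overlap, the 12 highest differences ran from 2.41 to 8.36. All 12 had a negative day 1 mean, and 11 of 12 had a positive late mean, TMSB10 being the exception. The 12 lowest ran from -5.73 to -3.04, all with a negative late mean and 11 of 12 with a positive day 1 mean, S100A6 being the exception. Picking genes by a large difference makes such signs likely, so these sign counts are not a separate result. The day 1 score was the one farther from 0 in 10 of the 12 highest genes and in 6 of the 12 lowest.

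Among genes with lower late scores that missed the threshold, NUB1 and PALM stood apart from the control mainly late. NUB1, which binds the ubiquitin-like protein NEDD8, scored 1.71 and -0.19 at day 1, -1.96 and -2.53 at day 3, and -3.58 and -4.50 at day 6. All its late arrays were below both early ones, and the difference was -3.90 (adjusted p = 0.0716, limma). PALM, or paralemmin, which is anchored to the plasma membrane, scored 1.16 and 0.54 at day 1, -3.94 and -6.51 at day 3, and -0.35 and -0.28 at day 6. Its low values were those of day 3, while its day 6 arrays lay 0.82 units or more below those of day 1, and its difference of -3.62 had an adjusted p of 0.258 (limma).
EEF1B2, a subunit of the complex that recharges elongation factor eEF1A with GTP, scored 0.79 and 0.88 at day 1, -0.67 and -2.01 at day 3, and -2.17 and -3.95 at day 6. ETFB, the beta subunit of the electron transfer flavoprotein, scored 0.13 and 1.21 at day 1, -3.29 and -1.32 at day 3, and -2.75 and -1.37 at day 6. For each gene the late arrays all lay below the early ones, with differences of -3.04 and -2.85 (adjusted p = 0.436 and 0.494, limma).

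DYNC1I2, an intermediate chain of cytoplasmic dynein, was instead above the control at day 1. It scored 4.59 and 2.03 at day 1, 0.26 and 0.99 at day 3, and -1.49 and -2.05 at day 6, a difference of -3.88 (adjusted p = 0.0795, limma). Its 6 arrays did not overlap between early and late, and the day 6 arrays were the lowest. TBCE, a chaperone that folds tubulin, followed it with 2.74 and 1.37 at day 1, -0.27 and 0.04 at day 3, and 0.12 and -2.09 at day 6. DMTN, or dematin, an actin-bundling protein, scored 2.05 and 0.96 at day 1, -1.53 and -2.26 at day 3, and -1.10 and -1.60 at day 6. All 4 late arrays of DMTN were negative and its early arrays positive, and the difference was -3.13 (adjusted p = 0.333, limma). CHTOP, a chromatin and mRNA export protein, had a difference of -3.64 (adjusted p = 0.119, limma) that rested on replicate B of day 1 at 5.17, against 0.13 in replicate A. POPDC2, a cAMP-binding membrane protein of muscle, had a difference of -3.04, with a gap of only 0.06 units between its early and late arrays.

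In the other direction, no gene besides CDKN1C passed the test. ATOX1, the copper chaperone of the cytosol, scored -2.02 and -2.48 at day 1, 0.28 and 0.32 at day 3, and 0.65 and 2.78 at day 6. Each of its late arrays was above 0 and at least 2.30 units above the early ones, a difference of 3.26 (adjusted p = 0.258, limma). MYL11, the fast skeletal myosin regulatory light chain, scored -3.84 and -0.78 at day 1, 0.79 and 1.12 at day 3, and 0.14 and 0.60 at day 6. Its late arrays were close together just above 0, the early ones 3.07 apart, and the difference was 2.97 (adjusted p = 0.436, limma). TNNI2, the fast skeletal troponin I that inhibits contraction at rest, scored -2.13 and -1.47 at day 1, -0.35 and 0.58 at day 3, and 1.12 and 2.02 at day 6. PGAM2, the muscle form of phosphoglycerate mutase in glycolysis, scored -1.98 and -2.37 at day 1, -0.55 and -0.53 at day 3, and 2.33 and 1.35 at day 6. TNNI2 and PGAM2 had the same order of days, with day 1 lowest and day 6 highest on every array, and differences of 2.64 and 2.82 (adjusted p = 0.707 and 0.577, limma).

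NDUFV2, a subunit of respiratory complex I, was positive on all late arrays. It scored -0.39 and -1.32 at day 1, 2.28 and 1.49 at day 3, and 1.04 and 2.88 at day 6, with a difference of 2.78 (adjusted p = 0.552, limma). CHCHD2, a mitochondrial intermembrane space protein, scored -1.45 and 0.67 at day 1, 3.55 and 2.21 at day 3, and 1.32 and 2.69 at day 6. All its late arrays lay above both early ones, and its difference was 2.83 (adjusted p = 0.504, limma). GOT2, the mitochondrial aspartate aminotransferase, scored -1.46 and -1.59 at day 1, 1.44 and 0.80 at day 3, and 0.77 and 0.50 at day 6. Its early arrays were nearly equal and lay 1.96 units below the nearest late array. TMSB10, a thymosin that sequesters actin monomers, stayed below the control throughout, at -3.90 and -4.53 at day 1, -1.59 and -0.55 at day 3, and -1.93 and -2.64 at day 6. Its difference of 2.53 (adjusted p = 0.792, limma) was thus a gap to the control that was smaller late.

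Features were also sorted by their day 1 mean and late mean, among those whose arrays did not overlap and whose difference was at least 2 units. An early gap, with a day 1 mean at least 2 from 0 and a late mean within 1 of it, was seen in 18 of 2466 features (0.73%). Of these, 7 were below the control at day 1, with the genes CDKN1C, MYL11, PGAM2 and DPYSL3, and 11 were above it, with DYNC1I2, CHTOP, POPDC2, TBCE, RPS21 and SLC35B2 as genes. A late mean can also lie near 0 because days 3 and 6 fall on opposite sides of it. This was so for PGAM2 (-0.54 and 1.84), DYNC1I2 (0.62 and -1.77) and SLC35B2 (0.60 and -1.19), whose day 6 means were more than 1 from 0. A late gap had a day 1 mean within 1 of 0, a late mean at least 2 from 0 and both late days of the same sign. It was seen in 6 features (0.243%): CHCHD2 above the control and NUB1, PALM, EEF1B2, ETFB and the phosphatase DUSP26 below it. In 22 features (0.892%) the sign turned, with both means at least 1 from 0. The 7 that turned from below to above included ATOX1, the proteasome ATPase PSMC1 and the oligosaccharyltransferase subunit DDOST. The late mean of DDOST came from day 3, at 2.82 and 1.38, against 0.23 and -0.38 at day 6. That of PSMC1 drew on replicate A of day 3 at 3.81, while its other late arrays scored -0.25, 0.15 and 0.82. The 15 that turned from above to below included HMGN4, BSG, RPL17 and FAM210B, a mitochondrial protein whose difference was -3.30. A further 48 features (1.95%) met none of these descriptions. The counts of early and late gaps cannot be set against each other, as their rules differ. A day 1 mean is of 2 arrays and a late mean of 4, and only the late gap required the same sign on both late days. By sign alone, 59 features (2.39%) had both early arrays above 0 and all 4 late arrays below, and 50 (2.03%) the opposite.

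Most troponin genes were covered by several probes each, which gave a look at the same gene at separate places on the array. These genes were chosen after their values were seen. All 6 TNNI2 probes had a positive late minus day 1 difference, from 1.00 to 4.17, and 3 of them had early and late arrays that did not overlap. The 7 probes of TNNT3, the fast troponin T, ran from 0.13 to 2.04 and all were positive, with a gene mean of 1.26. The 3 probes of TNNC2, the fast troponin C, ran from 0.84 to 1.51, with a mean of 1.22. Probes of a gene share its RNA and are not replicates of a condition. In all, 16 of 16 probes of the fast skeletal troponins were higher late. Slow troponins were less uniform: 7 of 9 probes of TNNT1 and 2 of 2 of TNNC1 were positive. Their gene means were 1.07 and 0.99, and the lone probe of TNNI1 gave -0.35. The lone probe of TNNI3, the cardiac troponin I, gave -0.71. No test of fast against slow was made, and no troponin passed limma as a gene. With probes kept separate, 1 TNNI2 probe passed (adjusted p = 0.0479, limma).

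**Figure D3:**
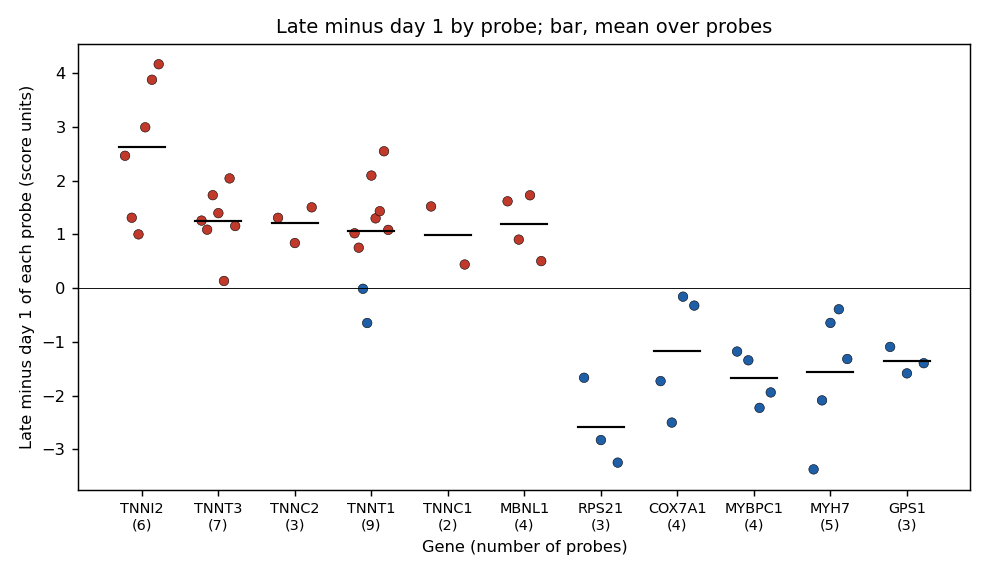
Late minus day 1 difference, in score units, of each probe of 11 genes, with the number of probes in parentheses under each name; bars are the mean over a gene's probes, red points are above 0 and blue points below. All probes of TNNI2, TNNT3 and TNNC2 lie above 0, those of RPS21 from -3.25 to -1.67, and TNNT1 has 2 of its 9 probes below 0.

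Probes of a gene did not agree in general. Of 108 genes with 2 probes, 51 (47.2%) had both differences on the same side of 0, and of 36 genes with at least 3 probes 14 had all of them on 1 side. Besides the 3 fast troponins, these 14 held MBNL1, a splicing regulator of muscle, with 4 probes from 0.50 to 1.73 and 2 of them not overlapping. On the low side RPS21, a protein of the small ribosomal subunit, had 3 probes from -3.25 to -1.67, and none of the 3 overlapped between early and late. RPS21 scored 1.88 and 2.22 at day 1, -1.67 and 0.71 at day 3, and -0.34 and -0.79 at day 6 as a gene, a difference of -2.57 (adjusted p = 0.731, limma). Also on the low side were 4 probes of MYBPC1, the slow myosin-binding protein C, from -2.23 to -1.18. The day means of MYBPC1 were 0.27, -2.31 and -0.48, and without day 3 its difference was -0.75. Another 4 probes, of the muscle cytochrome oxidase subunit COX7A1, ran from -2.50 to -0.16. The 5 probes of MYH7, the slow and cardiac myosin heavy chain, ran from -3.37 to -0.39, but its late value came from day 3 alone. MYH7 scored -4.24 and -3.08 at day 3 against 0.30 and 0.04 at day 6 and -0.10 and -0.28 at day 1, and without day 3 the difference was 0.36. The 2 probes of the Z-disc gene LDB3 gave -4.61 and 2.12, and the first passed when probes were kept separate (adjusted p = 0.0152, limma).

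Of 14 measured thin filament genes 9 had a positive difference and 5 a negative one, with a median of 0.66, against 0.00 over all 2466 features, of which 50% were positive. No member passed limma; 5 of 14 had non-overlapping arrays with the late ones higher and 0 with them lower, against 7.42% and 7.79% of all features. These 5 were TNNI2, ACTA1, TPM1, TNNT3 and TNNC2. The list's median score was -0.57 at day 1, -0.01 at day 3 and 0.55 at day 6, and the median difference was 0.20 without day 6. ACTA1, skeletal muscle actin, scored -1.18 and -1.57 at day 1, 0.04 and -0.65 at day 3, and -0.58 and 3.97 at day 6. Its early arrays were the lowest, and its difference of 2.07 (adjusted p = 0.963, limma) drew on 1 high array, replicate B of day 6. TPM1, a tropomyosin that lies along the actin filament, had day means of -0.80, 0.81 and 1.09.

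Of 16 measured thick filament genes, 7 were positive and 9 negative, with a median of -0.45, and 2 were non-overlapping in each direction: MYL11 and MYL3 higher, MYBPC1 and MYOM1 lower. Over all features, 7.42% were non-overlapping with late arrays higher and 7.79% with them lower, shares that also stand beside the next 2 lists. The median was 0.18 without day 3 and 0.01 without day 1 replicate B. Of 22 genes of the Z disc and costamere, 16 were positive, with a median of 0.54 and 1 non-overlapping in each direction, PDLIM3 at 1.66 and LDB3 at -1.24. That median was 0.28 without day 1 replicate A and also with neighbouring probes subtracted. Of 15 genes of excitation and calcium handling, 7 were positive and the median was -0.06. The 2 of them that did not overlap were both lower late: JSRP1 at -1.12 and STAC3, an adaptor of excitation-contraction coupling, at -1.02. No gene of these 3 lists passed limma.

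Energy metabolism gave a mixed picture. Of 12 measured genes of glycolysis and glycogen, 6 were positive and 6 negative, with a median of 0.04, and 4 had late arrays wholly above the early ones and 0 the reverse, against 7.42% and 7.79% of all features. These 4 were PGAM2 at 2.82, the sugar phosphate mutase PGM1 at 2.45, the muscle phosphofructokinase PFKM at 2.24 and glucose phosphate isomerase, GPI, at 1.69. PGM1 scored -0.45 and -2.57 on the day 1 arrays, and without the lower, replicate B, its difference was 1.39. PGK1, which makes ATP in glycolysis, was below the control on all days, with means of -1.36, -2.33 and -1.60. Of 49 respiratory chain genes 35 were positive (71.4%) and the median was 0.30. Of the 49, 4 did not overlap in the higher and 2 in the lower direction, against 7.42% and 7.79% of all features. The 4 were NDUFV2, COX14 at 2.10, NDUFA8 at 1.28 and COX17 at 1.11, and the 2 were NDUFB3 at -1.18 and COX7A1 at -1.17. The median of this list was 0.46 in the replicate A arrays, -0.03 in the replicate B arrays, and 0.02 without day 6. Of 15 genes of phosphate transfer and oxygen handling, GOT2, MDH2 and GOT1 were wholly higher late and CKMT2, the mitochondrial creatine kinase of muscle, and COX7A1 wholly lower. ATP synthase genes divided evenly, 7 of 14 on each side of 0, and no gene of these 4 lists passed limma.

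Of 33 measured genes of the large ribosomal subunit, 22 had a negative difference and 11 a positive one, with a median of -0.43. RPL17 was the 1 member that fell by limma, against 0.243% of all features. Of the 33, 5 were wholly lower late and 0 wholly higher, against 7.79% and 7.42% of all features. Besides RPL17 these were RPL27A at -1.97, RPL28 at -1.07, RPL13A at -0.63 and RPL23A at -0.52. RPL27A scored 1.55 and 1.00 at day 1, -0.98 and -0.53 at day 3, and -0.66 and -0.60 at day 6. Both early arrays lay above 0 and all 4 late arrays close together below it. The median of the list was negative in each of 9 alternatives, from -0.55 to -0.09. The small subunit had 12 of 22 positive and a median of 0.10, with RPS3 and RPS19 wholly higher late and RPS21, RPS18, RPS12 and FAU wholly lower. Of 28 translation factors and their binding proteins 12 were positive, with a median of -0.07, or -0.72 from day 6 alone and 0.07 from day 3 alone.

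**Figure D4:**
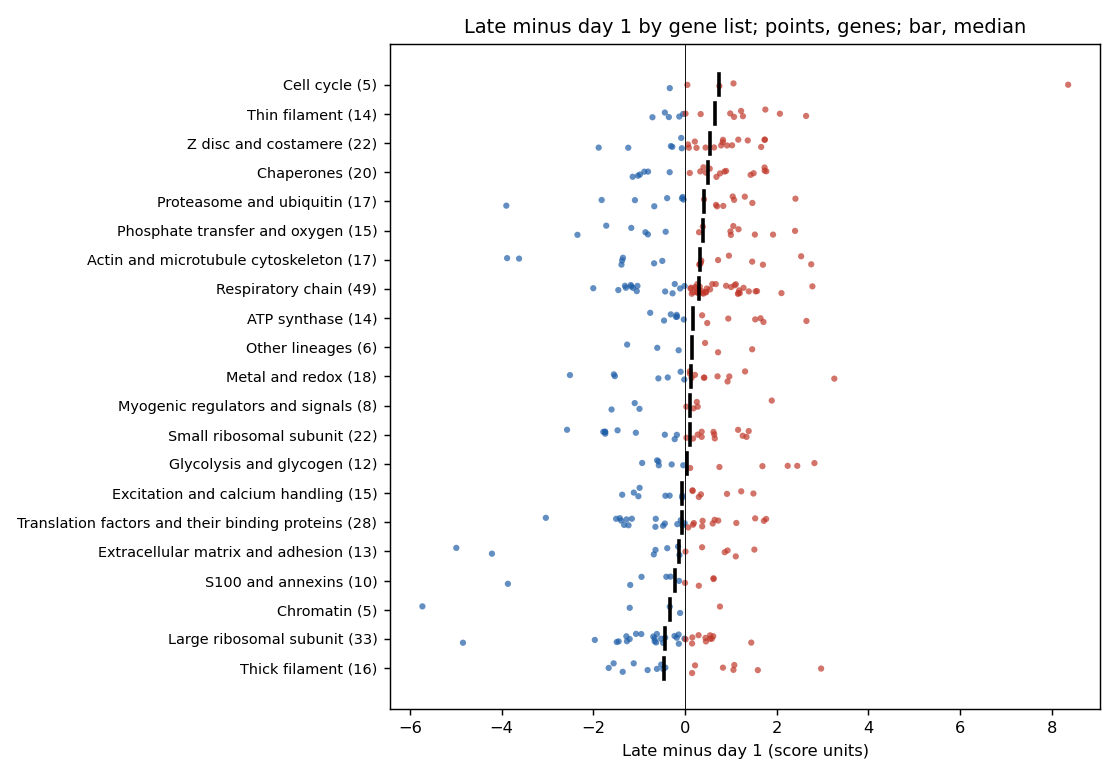
Late minus day 1 difference, in score units, of every measured gene of 21 lists, with the number of genes in parentheses; short black bars are the medians, red points lie above 0 and blue points below. The thin filament has a median of 0.66, the large ribosomal subunit -0.43 and the thick filament -0.45, and CDKN1C is the point at 8.36 in the cell cycle list.

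The cell cycle list had 5 measured genes, of which 4 were positive, and only CDKN1C did not overlap. Its other members were close to 0 or small in difference: the replication helicase subunit MCM3 at 1.06, the antiproliferative gene TOB2 at 0.75, cyclin D3 (CCND3) at 0.05 and the histone H2AZ1 at -0.33. Among 8 myogenic regulators and signals, IGFBP7, a secreted binding protein of insulin-like growth factors, was the 1 with non-overlapping arrays. It scored -3.15 and -3.02 at day 1, -2.43 and -0.34 at day 3, and -1.34 and -0.65 at day 6, so it was below the control on all 6 arrays and nearer to it late (difference 1.89, adjusted p = 0.963, limma). Of 13 genes of extracellular matrix and adhesion 6 were positive. BSG and CD81 were the 2 that fell by limma, against 0.243% of all features. The CD81 call rested on replicate A of day 1. COL4A2, a basement membrane collagen, was wholly higher late at 1.51. Of 17 genes of the actin and microtubule cytoskeleton, CFL2, the muscle cofilin, at 1.70 and TMSB10 were wholly higher late, and DYNC1I2 and PALM wholly lower. Of all features, 7.42% were wholly higher late and 7.79% wholly lower.

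Of 20 chaperones 14 were positive with a median of 0.50, and HSP90AB1 at 0.86 was the 1 that did not overlap. Of 17 proteasome and ubiquitin genes 9 were positive, with PSMC1 at 2.41 and PSMB7 at 1.31 wholly higher late and NUB1 wholly lower. Among 10 S100 proteins and annexins only S100A6 did not overlap, and the median was -0.22. Of 18 genes of metal and redox handling, ATOX1 and the peroxiredoxin PRDX2, at 1.31, were wholly higher late. Of 5 chromatin genes, HMGN4 fell by limma, against 0.243% of all features, and SET was wholly higher late by a gap of 0.01 units. Beside the counts of these lists, 7.42% of all features were wholly higher late and 7.79% wholly lower.

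Markers of other cell types were few on this array. Of skeletal muscle markers 7 were found under their listed symbols and 6 had a positive difference, with DES at -0.31. Their medians were -0.91 at day 1, -0.20 at day 3 and 1.26 at day 6. MYL11, at 2.97, was listed as MYLPF and is not counted among them. TNNI2, ACTA1, TNNT3 and TNNT1 are also in the thin filament list. The 4 smooth muscle and fibroblast markers measured gave CNN1 at 1.47, TAGLN at 0.72, FN1 at -0.39 and VIM at -1.35. The adipocyte markers SCD and FABP4 were at -1.26 and -0.61, and the blood markers HBA1 and HBB at 0.44 and -0.14. None of these 8 had arrays that separated early from late. The part of a changed mix of cells in the differences was not tested.

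**Figure D5:**
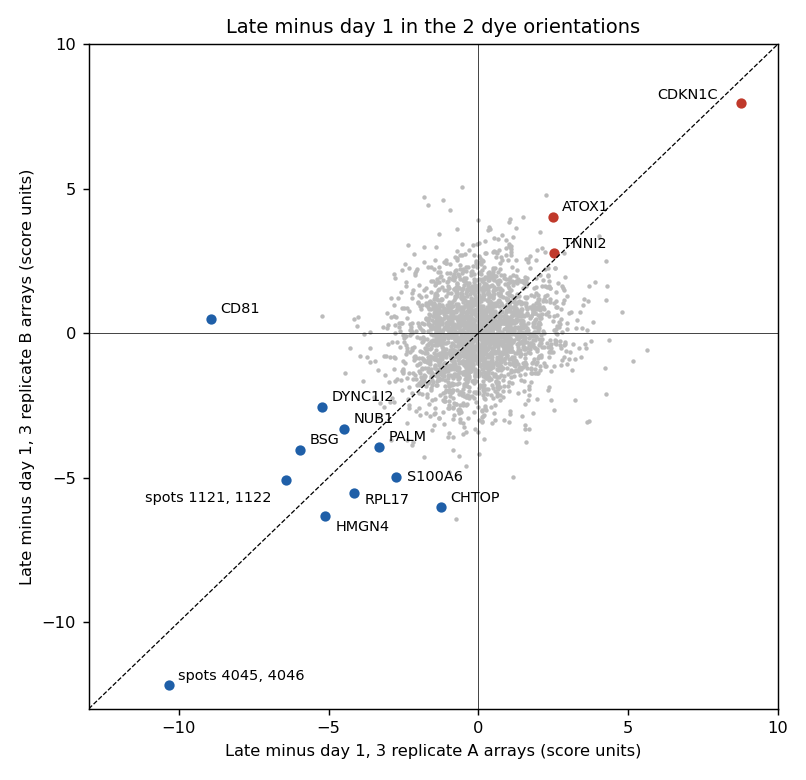
Late minus day 1 difference of 2466 features, in score units, from the 3 replicate A arrays (clone in Cy5) on the horizontal axis and from the 3 replicate B arrays (clone in Cy3) on the vertical axis; the dashed line marks equal differences, and coloured points are named features, red above 0 and blue below. CDKN1C lies at 8.75 and 7.97, and CD81 at -8.91 and 0.49.

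The replicate A and replicate B arrays gave 2 estimates of late minus day 1 that share no array and have opposite dyes. Over 2466 features the estimates correlated at 0.20 (Pearson), and over the 1521 genes at 0.22. Features on the same arrays share the labelling and position effects, so this is a description. Odd and even spots of the same probe correlated at 0.41 over 2688 probes, the first and second probe of a gene at 0.17 over 144 genes, and probes 2 places apart in spot order at 0.22 over 2686 pairs. Adjacent probes correlated at 0.09, and this dependence on spot order is not removed in the values above. No label read here says whether same-day arrays came from separate cultures, so the spread between them may be purely technical. That spread did not enter the main p-values, since same-day arrays were averaged before the fit. The residual of the main test came from the difference between the late days, which can hold real change with time as well as noise.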

How the data were processed

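The members and gene lists were chosen with earlier results of these data known. Clone and control RNA was hybridised to 6 arrays in 2 colours. Trizol RNA was labelled with a tyramide amplification kit, per the labels' protocols. The authors deposited a score per spot (unit: score); its filtering, normalization, scale and direction are not given in the sources used here, so no fold changes are given; precision is limited by how few arrays there are. There were 0 missing values. Odd and following even spots were averaged to 2688 probes (same symbol in 1743 of 1743 named pairs), and probes of a gene symbol to 2466 features. A platform annotation gave 1 symbol for 3486 spots, none for 1890 and several for 0. Each array was centred on its median.

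The test of late minus day 1 used limma (3.58.1; R 4.3.3) on 3 day means (a day's dye-swapped arrays were 1 replicate), two-sided, with Benjamini-Hochberg adjustment over 2466 features and a threshold of 0.05. Intervals are 95% from this fit. In simulations with 2466 features, 5 runs and 200 changed features, 47.2% of the 3-unit and 100% of the 6-unit changes were found. Of the simulated calls, 4.42% were false. The simulations took over the assumptions of the test, whereas real scores depended on spot order and the call of CD81 rested on 1 array. They therefore cannot show what share of the real calls was false. Genes named were MYOD1 and the title genes, all genes past the threshold, the 12 highest and 12 lowest differences without overlap, up to 4 per pattern and direction, and 2 per list and direction. After the values were seen, list members were narrowed to those without overlap. Genes with several probes, the troponins TNNI1 and TNNI3, RPS21, SLC35B2 and DUSP26 were added. MYL11 was taken as the current symbol of MYLPF, except in the list of cell type markers and in the promoter search. Alternatives were other normalizations, subtraction of 10 neighbouring probes, odd or even spots, separate probes, genes only, 6 arrays, a replicate block, a robust prior, other gaps, and leaving out each array or day. Figures used Python 3.11.15 and matplotlib 3.10.9.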

Additional observations from a re-analysis of the deposited data

Results flagged for a closer look

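For 7 features the difference between time points, late against day 1, passed limma. The score of CDKN1C rose by 8.36. Those of HMGN4 (-5.73), BSG (-4.99), RPL17 (-4.84) and CD81 (-4.21) fell, as did 2 probes without a gene name, at spots 4045 and 4046 (-11.26) and at spots 1121 and 1122 (-5.75). CD81 rested on replicate A of day 1, without which its difference was 0.0821. For the other 6 the early and late arrays did not overlap.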

How the results depend on the processing

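The 7 calls became 4 on values as deposited, 2 with neighbouring probes subtracted and 1 with genes only, where CDKN1C remained. Leaving out 1 array gave 1 to 24 calls. There were 1 without day 3 replicate B, 2 without day 3 replicate A, 2 without day 6 replicate A, 13 without day 1 replicate A and 24 without day 1 replicate B, where the lone day 1 array was treated like a mean of 2. Without day 3 or without day 6 limma could not be fitted, as no residual degree of freedom was left. With the replicate block, 5 features passed and BSG had an adjusted p of 0.0862 (limma). Deviations of arrays with the same letter from their day means correlated at -0.00, -0.01 and -0.04 over features. The letters mark the dye orientation, which arrays of the same letter share. A correlation over all features does not describe single genes, and dye effects on single genes were not tested. The 9 features with a gap of 2 units became 375 with no gap, 52 with 1 unit, 2 with 3 units, 14 on odd spots, 45 without day 3, 35 without day 6, and 12 to 52 with 1 array left out (18 without day 3 replicate A, 17 without day 6 replicate A, 37 without day 1 replicate A, 52 without day 1 replicate B). Requiring 3 units, the early, late and turned patterns held 5, 3 and 11 features. Differences changed sign for ANKRD2 (-0.20, odd spots), CD81 (0.0821 without day 1 replicate A; leaving out 1 array gave -8.51 to 0.0821), MYH7 (0.36, without day 3), MYOD1 (-0.20 without day 1 replicate B, -0.35 without day 3 replicate A; range -0.35 to 0.72) and TNNI1 (0.34 on odd spots, 0.47 without day 1 replicate A; range -1.17 to 0.47). CDKN1C passed wherever limma was fitted, at 7.58 to 9.14. Of 1077 values of 60 features under alternatives, 976 counted as unchanged. Where limma was fitted, this meant the same direction and side of the threshold. Without day 3 or day 6 there was no test, and it meant the same direction and a shift below the replicate spread. Of the rest, 38 no longer passed, 13 newly passed, 7 changed sign and 43 without a test moved by more than the replicate spread. The cause of these changes was not tested.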
